A study of Mus musculus with 2 samples.

Results

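Adrenergic receptors are G-protein-coupled receptors for noradrenaline and adrenaline, and 8 of their genes were described here in the left cerebral cortex of male mice: Adra1a, Adra1b, Adra1d, Adra2a, Adra2b, Adra2c, Adrb1 and Adrb3. The 8 genes were taken by symbol from 55536 genes of the deposited gene tables, of which 22028 are annotated as protein-coding, and each symbol matched 1 gene. Total RNA was measured in 2 libraries, called replicate 1 and replicate 2, which form 1 group: B6CASTF1/J males, a first-generation hybrid of the C57BL/6 and CAST strains, aged 14 days, with no treatment named. The RNA input was 300 ng a library, with ERCC spike-ins of the profile for stranded libraries with reduced ribosomal RNA. The labels number the libraries as separate biological replicates and give each a biosample of its own. They also give 1 donor entry for both and mention 3 males, without stating if tissue was combined, so that the spread between the libraries may be biological or technical. With 1 group there is no comparison between conditions and no p-value, and every difference below is between 2 libraries of the same kind.

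In the cortex, noradrenaline is released by axons whose cell bodies lie in the locus coeruleus of the brainstem, so the tissue holds the receptors but not the nuclei of the cells that make the transmitter. The alpha1 receptors couple to Gq proteins, which activate phospholipase C and release calcium from stores. The alpha2 receptors couple to Gi and Go proteins, which inhibit adenylyl cyclase and open inward-rectifier potassium channels, and they act both on the noradrenergic terminals and on the cells these contact. The beta receptors couple to Gs proteins, which activate adenylyl cyclase and raise cyclic AMP.

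The gene tables held 28263266 expected counts (reads estimated per gene) in replicate 1 and 30862848 in replicate 2. The vesicular glutamate transporter Slc17a7 stood at 684 and 741 TPM (a level divided by transcript length and set against the sum over the library) in replicates 1 and 2, and all 5 genes of a cortical excitatory neuron list reached TPM 1 in both libraries. Genes of striatal neurons were also present, and their summed level was 559 TPM in replicate 1 and 158 in replicate 2. That contrast between the libraries is taken up beside the receptors below.

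Of the 8 genes, 6 reached a TPM of at least 1 in both libraries, and Adra2b and Adrb3 were below 1 in both. The same threshold was met by 58.8% of protein-coding genes and by 27.1% of all genes. The 6 higher genes had 301 to 1198 expected counts in a library. Values below are the level in replicate 1 and then in replicate 2, followed by the mean ± SD (n = 2).

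The alpha1 genes were all of similar level in replicate 1, and Adra1d stood apart from the other two in replicate 2. Adra1a encodes the alpha1A receptor (chr14:66635251-66771168, mm10, plus strand). Its level was 11.0 and 13.5 TPM (12.25 ± 1.82), from 832 and 1095 counts. Adra1b encodes the alpha1B receptor (chr11:43774606-43901210, minus strand), and stood at 10.5 and 12.7 TPM (11.6 ± 1.53), from 466 and 606 counts. Adra1d, the gene of the alpha1D receptor (chr2:131545850-131562283, minus strand), was at 13.2 and 21.4 TPM (17.3 ± 5.78), from 451 and 780 counts. Replicate 2 was the higher library for all 3 genes. Among protein-coding genes, Adra1d lay at percentile 67.0 of level in replicate 1 and 76.2 in replicate 2, whereas Adra1a lay at 63.8 and 67.7 and Adra1b at 63.1 and 66.5.

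The alpha2 genes spanned a wide range of level. Adra2a, whose product is an autoreceptor of noradrenergic terminals and also acts on cortical neurons (chr19:54044151-54048982, plus strand), was at 17.6 and 15.4 TPM (16.5 ± 1.56), from 1198 and 1121 counts. Adra2c encodes the alpha2C receptor, known for its abundance in the striatum (chr5:35278319-35281763, plus strand). It stood at 8.99 and 4.44 TPM (6.72 ± 3.22), from 571 and 301 counts. Adra2b, the gene of the alpha2B receptor (chr2:127363208-127367221, plus strand), was at 0.52 and 0.21 TPM (0.365 ± 0.219), from 39 and 16 counts. Replicate 1 was the higher library for all 3 genes. The level of Adra2a was 1.96 times that of Adra2c in replicate 1 and 3.46 times in replicate 2, while Adra2c exceeded Adra2b 17.3-fold and 21.1-fold, the latter on the few counts of Adra2b.

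Of the beta genes, Adrb1 was among the highest of the 8 genes and Adrb3 among the lowest. Adrb1 encodes the beta1 receptor, which raises cyclic AMP in heart and brain (chr19:56722199-56733113, plus strand). Its level was 14.2 and 20.0 TPM (17.1 ± 4.07), from 758 and 1094 counts, with replicate 2 the higher. Adrb3, whose product drives lipolysis and heat production in fat cells (chr8:27225776-27250616, minus strand), was at 0.55 and 0.28 TPM (0.415 ± 0.191), from 19 and 14 counts. The TPM of Adrb3 differed more than its counts because its effective length, by which counts are divided, was 1832 bases in replicate 1 and 2428 in replicate 2. Of 4 genes of an adipocyte list none reached TPM 1 in both libraries. The highest, Cidea, stood at 1.19 and 0.68 TPM on 23 and 14 counts, above Adrb3, and Adipoq was listed at 0 in both.

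**Figure D1:**
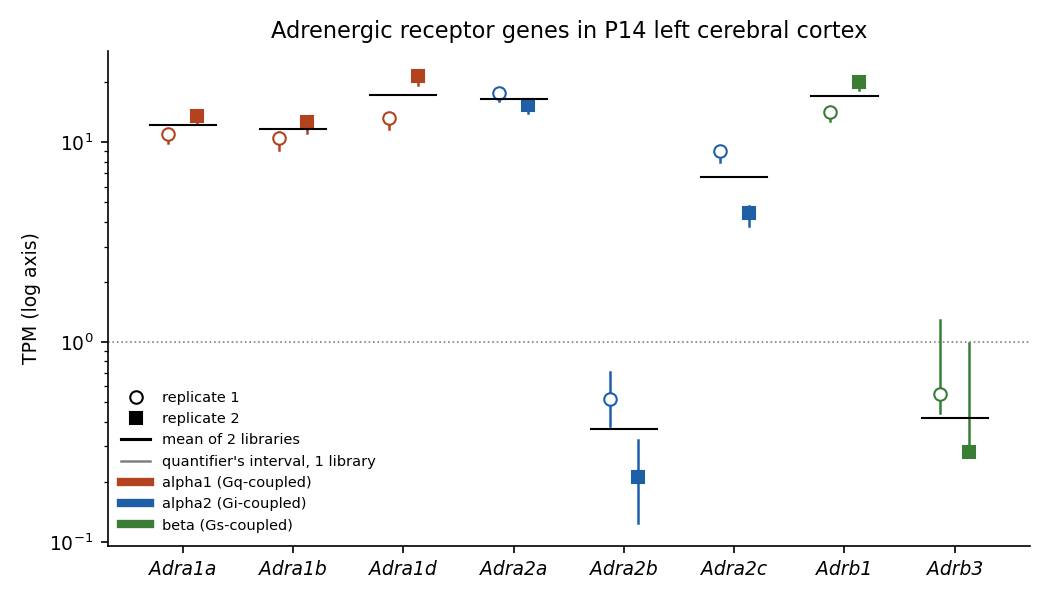
Level of the 8 genes in TPM on a log axis, with an open circle for replicate 1, a filled square for replicate 2, a black line for the mean of both and a vertical line for the interval the quantifier wrote for 1 library. The dotted line marks TPM 1: 6 genes lie above it in both libraries, and Adra2b and Adrb3 lie below it in both.

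Ordered by mean TPM, the genes ran Adra1d, Adrb1, Adra2a, Adra1a, Adra1b, Adra2c, Adrb3 and Adra2b. Of the 7 pairs of neighbours in this order, 3 had ranges that did not overlap: Adra2a over Adra1a, Adra1b over Adra2c, and Adra2c over Adrb3. The first 3 genes could not be ordered beyond their spread, since Adra2a was the highest gene in replicate 1 and Adra1d in replicate 2. Adra1a and Adra1b, and likewise Adrb3 and Adra2b, were also not separated. Over all 28 pairs, 22 had separate ranges. The bounds that the quantifier wrote for 1 library were 16.0 to 18.0 TPM for Adra2a and 11.6 to 13.9 for Adra1d in replicate 1, and 14.0 to 15.8 and 19.2 to 22.1 in replicate 2. These bounds did not overlap within either library, and the order of the 2 genes was opposite between them. For Adrb3 the bounds were 0.443 to 1.29 and 0.282 to 0.989 TPM, and the reported 0.28 of replicate 2 sat at the lower edge.

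By receptor class, the alpha1 genes summed to 34.7 and 47.6 TPM, the alpha2 genes to 27.1 and 20.0, and the beta genes to 14.8 and 20.3. Of the summed level of the 8 genes, the alpha1 class held 45.3% and 54.2% (49.7 ± 6.26%). The alpha2 class held 35.4% and 22.8% (29.1 ± 8.92%), and the beta class 19.3% and 23.1% (21.2 ± 2.66%). The Gq-coupled class held the largest share in both libraries by TPM. By expected counts, not divided by length, it held 40.4% and 49.4%, and the alpha2 class 41.7% and 28.6%, so that in replicate 1 their order turned. By TPM, the Gi-coupled and Gs-coupled classes were nearly equal in replicate 2 and apart in replicate 1. The beta share covers Adrb1 and Adrb3 alone.

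Between the libraries, 3 of the 8 genes differed by more than 1.5-fold in CPM (counts divided by a library size scaled by TMM), against 11.0% of 18965 measured genes. Adra1d was 1.61-fold higher in replicate 2, a log2 difference of 0.69 with a 95% exact counting interval of 0.52 to 0.86. Adra2c was 2.02-fold lower in replicate 2 (log2 difference -1.02, interval -1.23 to -0.82). Adra2b was 2.43-fold lower (-1.28, interval -2.32 to -0.51), on few counts. At least 1.5-fold higher in replicate 2 were 4.36% of measured genes, and at least 1.5-fold lower 6.61%. Such intervals cover counting error only, not the spread between animals or preparations.

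The other 5 genes stayed within 1.5-fold. The log2 difference was 0.43 (0.30 to 0.57) for Adrb1, 0.30 (0.17 to 0.43) for Adra1a and 0.28 (0.10 to 0.46) for Adra1b. It was -0.19 (-0.31 to -0.08) for Adra2a and -0.48 (-1.65 to 0.53) for Adrb3. The counting interval left out 0 for 7 of the 8 genes, Adrb3 being the exception, against 28.5% of all measured genes. The 8 genes had a median of 0.04, with 4 higher and 4 lower in replicate 2, and all measured genes a median of -0.00023. Because genes of few counts scatter more, the higher genes were also read against 5203 genes with a mean of 300 to 1300 counts, of which 2.29% differed by more than 1.5-fold. Of those, 99.4% had a smaller absolute difference than Adra2c, 98.4% a smaller one than Adra1d, and 95.3% a smaller one than Adrb1. The share was 89.8% for Adra1a, 88.7% for Adra1b and 78.4% for Adra2a.

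**Figure D2:**
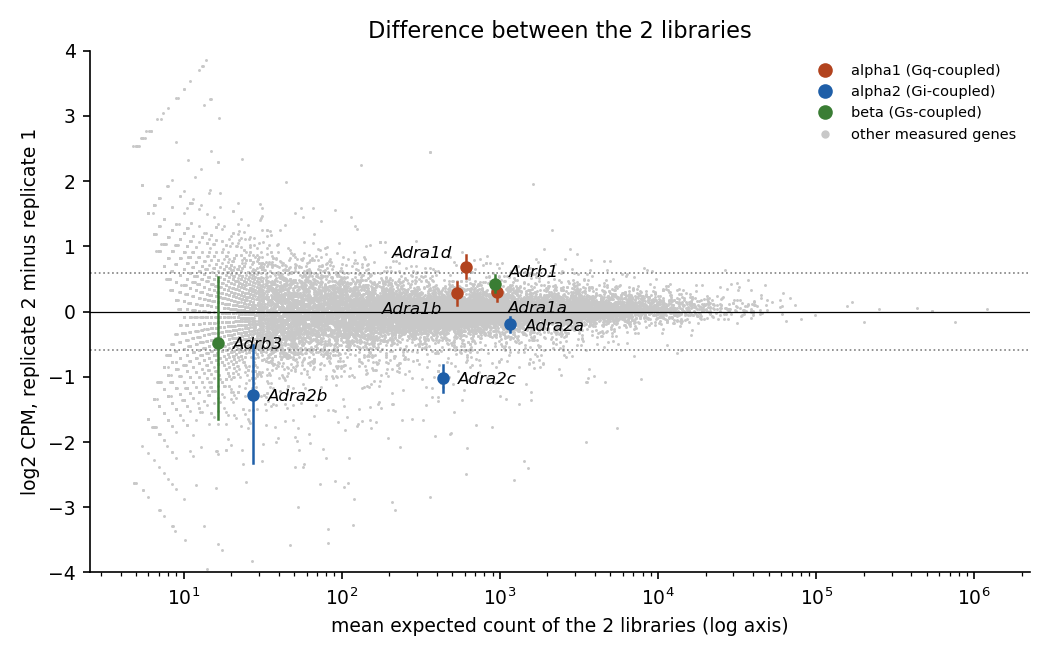
Log2 difference in CPM, replicate 2 minus replicate 1, against the mean expected count on a log axis, for the 8 genes (colour, with 95% exact counting intervals) and the other measured genes (grey; 24 measured genes lie outside the axis). Dotted lines mark 1.5-fold: Adra1d lies above the upper line, Adra2c and Adra2b below the lower, and Adrb3 has the widest interval.

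Markers of neurons of other regions and layers differed between the same libraries. All 8 genes of the striatal list were at TPM 1 in both libraries, none was at 0, all 8 were lower in replicate 2 and 7 by more than 1.5-fold, with a median log2 difference of -2.20. The highest of them, Ppp1r1b, which encodes the phosphatase inhibitor DARPP-32, stood at 186 and 46.0 TPM, and the opioid precursor gene Penk at 108 and 20.3. Adra2c was thus lower in the same library as these genes, by a smaller fold. Deep-layer genes (5 of 5 at TPM 1, summed level 168 and 96.7 TPM) had a median of -0.86. They were not uniform: 4 were lower in replicate 2 and 1 was higher, with a range from -1.35 to 0.17. Myelinating oligodendrocyte genes (5 of 5, 582 and 384) had a median of -0.64, and all 5 were lower. In the direction of Adra1d and Adrb1, all 4 upper-layer genes (summed level 216 and 288 TPM, led by Cux2 at 74.4 and 116) were higher in replicate 2 with a median of 0.36. All 5 excitatory neuron genes (summed level 806 and 899 TPM) were higher too, with a median of 0.30. The part of these cell classes in the differences of Adra2c, Adra1d, Adrb1 and the other receptors was not tested. In RNA of whole tissue, fewer cells of a type and less RNA per cell cannot be told apart.

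The remaining cell class lists gave values on both sides of 0. The median log2 difference was 0.05 for astrocyte genes, 0.10 for microglial, 0.08 for endothelial, 0.18 for mural, 0.12 for meningeal and 0.07 for choroid plexus genes. It was -0.07 for hippocampal, -0.20 for oligodendrocyte precursor, -0.33 for interneuron, -0.44 for thalamic and 0.55 for erythroid genes. Not all of these lists were uniform. The choroid plexus genes ran from -1.17 to 2.46, with 2 higher and 2 lower in replicate 2. Of the interneuron genes 1 was higher and 4 were lower, and of the thalamic genes 1 was higher and 3 were lower. The locus coeruleus list had a median of -1.04 on 2 measured genes, and the adipocyte list -0.73 on 1. Adra1a and Adra1b, at 0.30 and 0.28, and Adra2a, at -0.19, were not matched to any cell class, since 2 libraries of 1 group give no pattern.

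**Figure D3:**
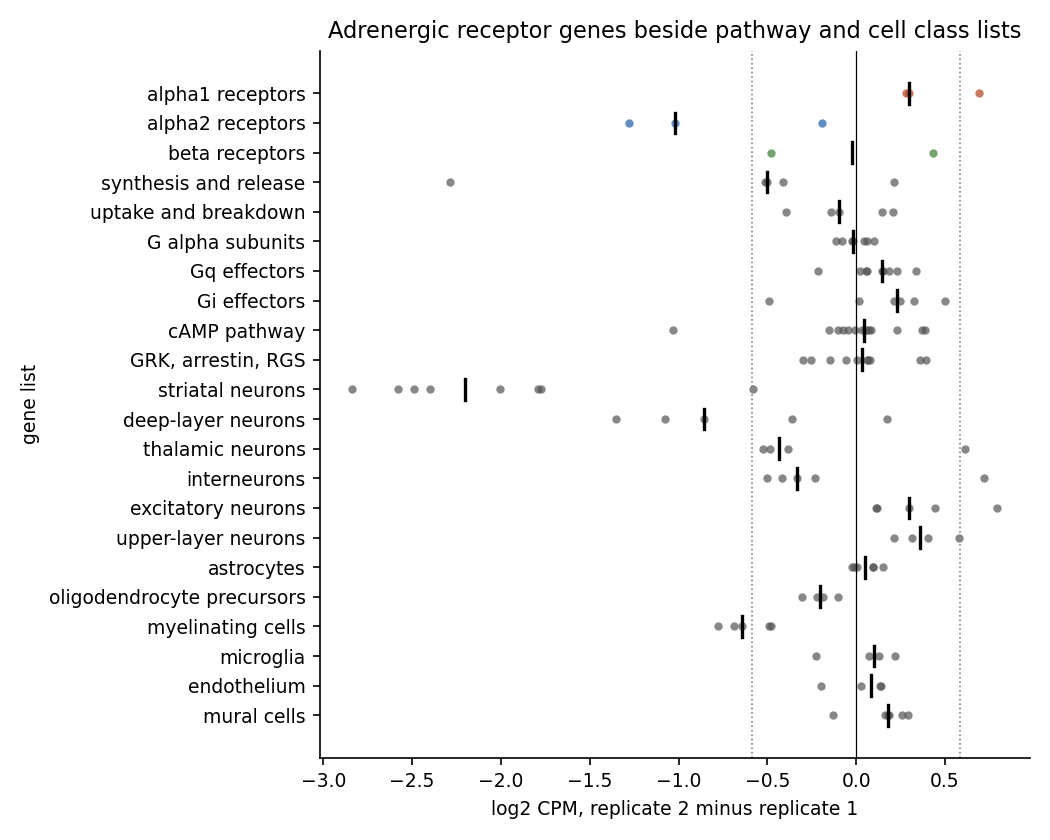
Log2 difference in CPM, replicate 2 minus replicate 1, for the measured genes of the 3 receptor classes, 7 pathway lists and 12 cell class lists. Each point is a gene, the black bar is the list's median and dotted lines mark 1.5-fold: the alpha1 genes lie right of 0, the alpha2 genes left of it, and the striatal list is farthest left.

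The receptor genes differ in how many transcripts the annotation gives them. The 8 genes have 23 annotated transcripts, of which 18 are protein-coding. Adra1d and Adra2c have 1 each, and the other 6 genes have more than 1. Each library had 2 deposited transcript tables, the first from transcriptome alignments and the second derived directly from reads and an index, and shares are given from both because both divide the same reads. On average over replicates 1 and 2, the tables put the same transcript first for 5 of these 6 genes. For Adra2b, the first table gave Adra2b-201 and Adra2b-202 the same mean of 50% and so put neither first. No 31-base word of the transcripts of 1 receptor gene occurred in another of the 8. The share of such words found in any other gene was 0% for Adra1d, Adra2a and Adra2c and at most 2.03%, for Adrb1. Words were compared in the direction of each transcript only, so overlap with antisense genes is not covered.

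For Adra1a, transcripts that differ in the end of the receptor were both abundant. Adra1a-203, whose coding sequence of 427 codons ends early, took 42.9% and 37.0% of the gene's TPM in replicates 1 and 2 of the first table (40.0 ± 4.16%). Adra1a-201, Adra1a-202 and Adra1a-205 share 1 coding sequence of 466 codons and together took 52.1% and 57.2% (54.6 ± 3.62%). Within that group Adra1a-202 led with 37.7% and 38.5%. The single highest transcript was Adra1a-203 in replicate 1 and Adra1a-202 in replicate 2, in both tables. The second table gave the 466-codon group 48.9% and 62.7%, and Adra1a-203 45.8% and 31.5%. The tables also differed within the 466-codon group: Adra1a-201 held 10.3% and 14.6% in the first table and 0.00014% and 12.6% in the second, and Adra1a-205 4.12% and 4.10% against 13.4% and 14.8%. Adra1a-206, of 295 codons, held 0.47% and 1.33%, and the retained-intron transcript Adra1a-204 4.55% and 4.45%.

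The coding ends of Adra1a are shown because they set where the receptor's protein sequence ends. Lower case marks the last coding bases shared with the 466-codon form, and capitals mark the coding bases after the sequences part. The reference transcripts of GENCODE M21 (mm10, chromosome 14, plus strand) are printed 5′ to 3′.
Adra1a-203: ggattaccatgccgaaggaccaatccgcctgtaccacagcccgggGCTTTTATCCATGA
Adra1a-202: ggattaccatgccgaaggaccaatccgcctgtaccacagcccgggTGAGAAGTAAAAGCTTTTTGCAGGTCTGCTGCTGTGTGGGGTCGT
Adra1a-206: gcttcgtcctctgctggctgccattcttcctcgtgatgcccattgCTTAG
Adra1a-203 and Adra1a-202 share their first 1270 coding bases. Adra1a-203 then has 14 more, with the stop codon TGA at the end, and Adra1a-202 has 131, of which the first are printed. Adra1a-206 parts earlier, after 883 shared coding bases, and reaches the stop codon TAG within 5.

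Adra1b had transcripts from different starts. Adra1b-201 and Adra1b-203 begin at position 43901210 and Adra1b-202 and Adra1b-204 at 43836332, further downstream on the minus strand. In the first table the upstream start held 47.8% and 46.2% of the gene's TPM (47.0 ± 1.17%), all of it in Adra1b-203. The downstream start held 52.2% and 53.9% (53.0 ± 1.17%), divided equally between Adra1b-202 and Adra1b-204, whose sequences are identical. In the second table the upstream start held 80.0% and 72.9% (76.4 ± 4.97%) and the downstream start 20.0% and 27.1%. The libraries were close to each other within a table, and the tables differed by more than the spread between libraries. Both upstream transcripts took part in this. Adra1b-201 was at 0% in both libraries of the first table and at 20.5% and 12.3% in the second. Adra1b-203 was at 47.8% and 46.2% in the first table and at 59.5% and 60.6% in the second. The coding end of Adra1b-203 is not annotated, so its 462 codons may be incomplete. They were not compared base by base with the 515 codons of Adra1b-201 and Adra1b-204.

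RefSeq (GRCm38.p6) also places starts of Adra1b near both positions, and the 250 bases before each are shown since the windows differ in base composition. Capitals mark each CG, and both are printed 5′ to 3′ on the minus strand, the upstream window at chr11:43901238-43901487 and the downstream one at chr11:43836490-43836739.
Adra1b upstream start: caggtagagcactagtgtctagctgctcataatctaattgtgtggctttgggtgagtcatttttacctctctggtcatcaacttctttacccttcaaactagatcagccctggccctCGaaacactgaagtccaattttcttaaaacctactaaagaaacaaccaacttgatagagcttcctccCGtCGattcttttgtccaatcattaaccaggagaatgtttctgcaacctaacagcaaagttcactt
Adra1b downstream start: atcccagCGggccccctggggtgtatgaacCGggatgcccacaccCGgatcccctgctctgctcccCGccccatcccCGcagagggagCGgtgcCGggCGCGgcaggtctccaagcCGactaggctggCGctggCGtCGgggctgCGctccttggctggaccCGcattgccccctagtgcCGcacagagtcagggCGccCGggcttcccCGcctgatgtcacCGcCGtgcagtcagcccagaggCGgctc
The upstream window has a GC content of 41.6% and 3 CG, and the downstream window 72.8% and 22 CG. Over 32851 windows of the same length in the table, the median was 52.4% and 6 CG. The letters CCAAT, searched on both strands, occurred in the upstream window and in 33.85% of all windows. The letters GGGCGG occurred in the downstream window and in 32.74% of all windows.

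RefSeq windows were found for 5 of the 8 genes: Adra1b, Adra2a, Adra2b, Adra2c and Adrb1. In GENCODE M21, 250 bases of the Adra2a window and 247 of the Adra2c window lie within annotated exons of the same gene, and the other windows overlap no exon of theirs. The windows of Adra2a, Adra2b and Adrb1 also held GGGCGG and had 22, 23 and 24 CG. The window of Adra2c had 6 CG, equal to the median, and no GGGCGG. The letters TATAAA occurred in the window of Adra2a and in none of the other receptor windows, against 12.37% of all windows, and TGACGTCA in none of them, against 1.546%. The alpha2 genes of highest and lowest level, Adra2a and Adra2b, both had windows with many CG. A match is a run of letters in these windows and not a measured binding site.

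For Adra2a, 1 transcript held most of the level. Adra2a-202, which begins at 54045260, held 92.3% and 91.8% in the first table (92.05 ± 0.382%), and Adra2a-201, which begins at 54044151, held 7.68% and 8.22%. The second table gave 79.6% and 79.1% to Adra2a-202. Both carry the same coding sequence of 465 codons, so this division does not touch the protein. For Adrb1, the single-exon coding transcript Adrb1-201 of 466 codons held 98.1% and 93.8%, and the processed transcript Adrb1-202, on 2 and 10 counts, the remaining 1.87% and 6.25%. The second table gave Adrb1-201 92.4% and 90.6%.

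The transcripts of the low genes could not be settled at their counts. For Adra2b, the first table put all of its 39 counts of replicate 1 in Adra2b-202 and all 16 of replicate 2 in Adra2b-201, while the second table put 100% in Adra2b-201 in both libraries. These differ in the annotated start codon, 453 against 448 codons. The start of the longer frame is shown because both start codons, in capitals, lie within it, 15 bases apart.
Adra2b-201: ATGtccggccccgccATGgtccaccaggag
The sequence is that of the reference transcript on chromosome 2, plus strand. Adrb3-201 held 29.0% and 71.2% of Adrb3 in the first table, Adrb3-203, with the same 400 codons, 32.6% and 28.8%, and Adrb3-202, of 404 codons, 38.4% and 0%. The second table put 35.2% and 100% in Adrb3-201. With 19 and 14 counts for the whole gene, the share of any 1 transcript rests on a few reads.

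**Figure D4:**
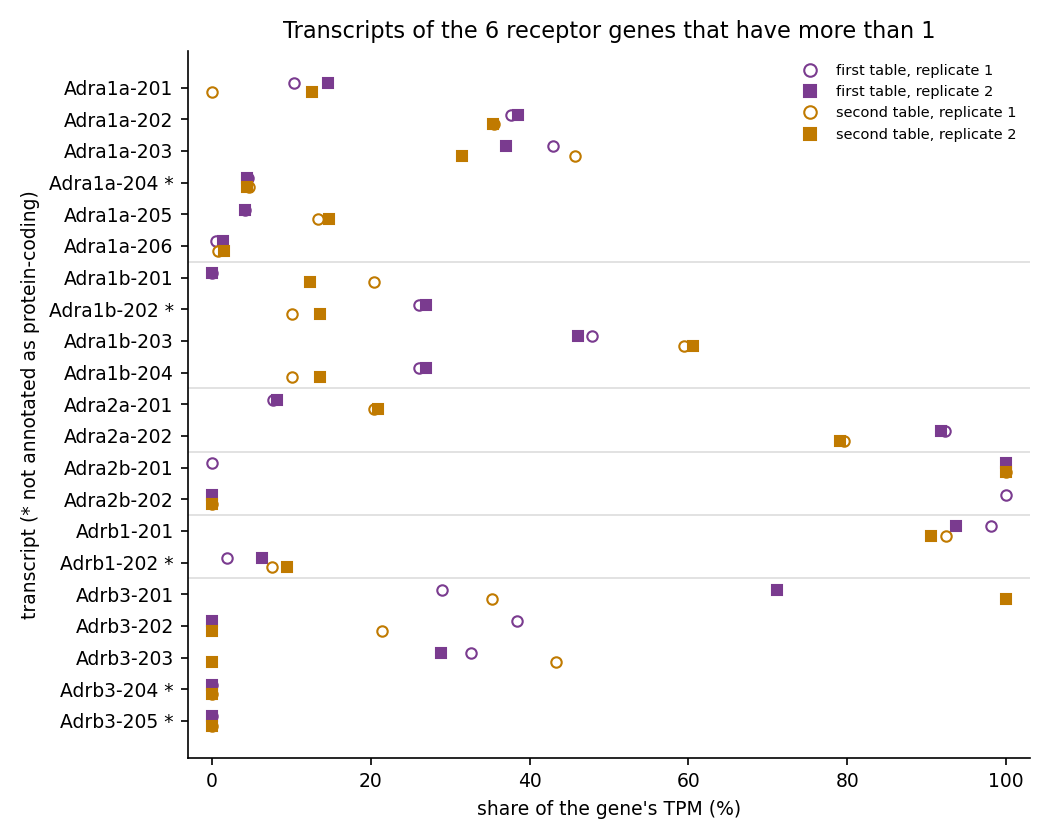
Share of the gene's TPM in each transcript of the 6 genes with more than 1, in percent, with circles for replicate 1, squares for replicate 2, purple for the first transcript table and orange for the second. The tables lie close for Adra1a-202 and apart for Adra1b, and the points of Adra2b lie at 0 or 100.

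The other genes of the pathway were counted over 7 lists of 58 genes, of which 51 reached TPM 1 in both libraries. Of 56 measured, none was more than 1.5-fold higher in replicate 2 and 2 were lower by more than that, with a median log2 difference of 0.05. Over all measured genes, 4.36% were at least 1.5-fold higher in replicate 2 and 6.61% at least 1.5-fold lower. Of the receptor genes, 3 of 8 passed 1.5-fold; most pathway genes had more counts than the receptors, and no test of the difference was made.

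Synthesis and release genes were at the lowest levels, with 1 of 6 at TPM 1 in both libraries. That gene, Ddc, which encodes aromatic amino acid decarboxylase, stood at 3.75 and 2.47 TPM. Tyrosine hydroxylase, Th, was at 1.85 and 0.28 TPM on 53 and 10 counts, a log2 difference of -2.29. Dbh, whose enzyme turns dopamine into noradrenaline, was at 0.69 and 0.80 TPM, and Pnmt, which makes adrenaline from it, at 0.70 and 0.47. The vesicular transporter gene Slc18a2 was at 0.25 and 0.19 TPM and the noradrenaline transporter gene Slc6a2 at 0.05 in both. Of 5 locus coeruleus genes none reached TPM 1 in both libraries, and the transcription factor gene Phox2a was listed at 0 in both. The genes of noradrenergic cells were thus lower per length than the 6 higher receptor genes. All 5 uptake and breakdown genes reached TPM 1 in both libraries, among them the monoamine transporter gene Slc29a4 (19.0 and 21.2 TPM).

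By their medians, the lists of G proteins and effectors stood above the receptor genes. The median was 80.7 and 85.5 TPM for G alpha genes, 63.0 and 71.5 for effectors of the alpha1 class, 34.6 and 42.1 for those of the alpha2 class and 52.4 and 49.9 for the cyclic AMP pathway, though single genes of these lists were lower than receptors. Of 8 G alpha genes 7 reached TPM 1 in both libraries, led by Gnas, the Gs subunit that beta receptors activate (890 and 828 TPM), and Gnao1, the Go subunit, to which alpha2 receptors couple (443 and 445). The Gq-family gene Gna14 was at 0.25 and 0.15. Of the effectors of the alpha1 class, 9 of 9 reached TPM 1, led by the protein kinase C gene Prkcb (384 and 436), and 8 of the 9 were higher in replicate 2, none by 1.5-fold. Effectors of the alpha2 class reached it for 5 of 6, led by the inward-rectifier channel gene Kcnj9 (42.7 and 59.2) and the hyperpolarization-activated channel gene Hcn2 (41.9 and 42.5), with Kcnj5 at 0.66 and 0.45. While all 3 alpha2 receptor genes were lower in replicate 2, 5 of these 6 effector genes were higher there. Over all measured genes, 9470 of 18965 were higher in replicate 2.

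In the cyclic AMP pathway, which the beta receptors activate and the alpha2 receptors inhibit, 14 of 14 genes reached TPM 1 in both libraries. The protein kinase A genes Prkar1b (271 and 273 TPM) and Prkacb (236 and 239) were highest and nearly equal in the 2 libraries. The adenylyl cyclase gene Adcy5, known for its abundance in the striatum and named here for its difference, was at 81.9 and 39.8 TPM, a log2 difference of -1.03. That was close to the -1.02 of Adra2c, and in the direction of the striatal list, whose part in it was not tested. All 10 genes of receptor kinases, arrestins and regulators of G-protein signalling reached TPM 1, led by Ppp1r9b, which encodes the scaffold spinophilin (225 and 230), and Rgs4 (181 and 236), an inhibitor of Gq and Gi signalling.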

How the data were processed

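Per the file headers and the deposited notes on each sample's files, the authors quantified total RNA on mm10 with GENCODE M21. Gene tables and a first transcript table hold the authors' expected counts (estimated reads, not normalized), TPM over all entries of a file, FPKM, the percent of a gene's TPM in each transcript, and bounds of the TPM of 1 library, treated as scores. A second deposited transcript table holds estimated counts and TPM. Column names are those RSEM and kallisto write. The tools' versions and any use of strand in counting: not given in the sources used here. The reference is that of C57BL/6, and reads of the CAST allele were not treated separately.

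Entries that name no gene, spike-ins mostly, were 0.404% and 0.387% of counts in replicates 1 and 2 and were left out. Log2 CPM came from rounded expected counts in edgeR 4.0.16 on R 4.3.3 (TMM scaling, prior count 2), and a measured gene had 10 counts or more in either library. DESeq2 1.42.0 gave alternative size factors. Intervals of count ratios are exact binomial. The rest was done in Python 3.11.15 (pandas 2.3.3, numpy 2.4.6, scipy 1.17.1; plots in matplotlib 3.10.9), and the steps were tested on simulated counts. Alternatives were another table, threshold, filter, scaling, prior count, unit, fold and single libraries.

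The 8 genes and all lists were chosen with earlier results of these data known. Named were the 8 genes, the 2 highest genes of each pathway list and those below TPM 1 in a library, and the 1 or 2 highest of cell class lists set beside a receptor. Some genes that this rule names are not reported here. Adcy5, Adipoq and Phox2a were named after their values were seen.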

Additional observations from a re-analysis of the deposited data

Results flagged for a closer look

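Counts were present in antisense genes that overlap receptor genes and enter no comparison above. Gm14285 (chr2:131561614-131563179, mm10, plus strand), which overlaps Adra1d, had 6 counts in replicate 1 and 8 in replicate 2, or 1.33% and 1.03% of the counts of Adra1d. Gm45470 (chr8:27228686-27240332, plus strand), which overlaps Adrb3, had 14 counts in replicate 1 and 19 in replicate 2, or 73.7% and 136% of the counts of Adrb3. These 4 values exceed the 3 counts that a count of 0 allows; in the second transcript table Gm14285 had 3 and 2 estimated counts and did not exceed it. In that table Gm45470 had 35.8 and 37.1 estimated counts and Adrb3 24 and 17. Without strand in the counting, reads of a gene and its antisense partner cannot be told apart, so the level of Adrb3 is uncertain.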

How the results depend on the processing

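No paired analysis was possible because both libraries belong to 1 group. Of 122 values recomputed under the alternatives, 115 stayed within the limits set for them and none reversed. None of 54 log2 differences changed sign. For levels and class shares the limit was 1 SD of the 2 libraries. Either library alone always lies within it: without replicate 1, Adra1d was at 21.36 TPM against 17.3 ± 5.78. Levels and shares with 1 library left out are therefore no test of stability. The limits for numbers of genes were wide, since 2 or 4 genes past 1.5-fold, against 3, were taken as the same. The 7 values of the 122 that moved were levels in the second transcript table. Its TPM was 1.56 and 1.54 times that of the gene table in replicates 1 and 2 (median of 12911 protein-coding genes). Divided by that ratio, a scale chosen after seeing the data, the levels of all 8 genes lay within 1 SD.

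The number of genes at TPM 1 in both libraries was 6 at a threshold of 0.5 or 2, in the second table and in each library alone. The number past 1.5-fold was 3 under DESeq2 size factors, library size alone, no filter, a prior count of 0.5 and in the second table. It was 2 at 2-fold, 2 with at least 100 counts, which leaves out Adra2b and Adrb3, and 4 by the ratio of TPM + 0.1, where Adrb3 was at -0.77. Adra2b ranged from -1.36 (prior count of 0.5) to -0.75 (second table). Among the 6 higher genes no log2 difference shifted by more than 0.058. By counts not divided by length, Adra2a came first, and in the second table Adrb1 came first. The mean alpha1 share was 44.9% by counts, which put alpha2 first in replicate 1, and 50.6% in the second table, and 45.3% to 54.2% with 1 library left out. Both tables put the same transcript first for 4 genes in replicate 1 alone and for 6 in replicate 2 alone. Depth limits Adra2b and Adrb3, at 14 to 39 counts a library.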
